A study of Mus musculus with 6 samples.

Results

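Small nucleolar RNA (snoRNA) host genes are genes whose introns carry snoRNAs. The 9 noncoding host genes *Gas5*, *Snhg1*, *Snhg3*, *Snhg5*, *Snhg6*, *Snhg8*, *Snhg12*, *Zfas1* and *Epb41l4aos* were picked by name, not by a measured value. Earlier results of these data were known when these genes were chosen. All 9 were among the 16381 genes of the table of normalized counts, and all 9 passed the filter on low values that left 14419 genes to test. Bulk RNA sequencing was done on activated ILC2s (aILC2s), group 2 innate lymphoid cells from the lung that release type 2 cytokines. WT BALB/c mice had received 0.5 µg of IL-33 per day for 3 days, and the sorted cells were then cultured for 24 h with 250 µM melatonin or with the solvent DMSO as vehicle, in 3 samples per group. As described, both groups therefore shared strain, genotype, IL-33 challenge, sort and culture, and differed in melatonin. They also differed in Y-linked transcripts, found in all vehicle samples but only part of the melatonin samples (below). Sex thus partly follows the groups. The methods give female mice aged 6 to 8 weeks. The cells are a sorted culture away from the lung, and the labels do not state whether the 3 samples of a group came from separate mice or cultures.

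When a host transcript is spliced, the snoRNA is trimmed out of the removed intron and enters a small ribonucleoprotein (snoRNP). Box C/D snoRNAs guide methylation of ribosomal RNA by fibrillarin, and box H/ACA snoRNAs guide pseudouridylation by dyskerin. The spliced exons of many host genes are degraded by nonsense-mediated decay, and many host genes, like the genes of ribosomal proteins, start with a C and a run of pyrimidines (the 5' terminal oligopyrimidine, or TOP, motif), which ties the translation of their transcripts to mTOR. The sequencing measured polyadenylated RNA, so the values below are of the host transcripts and not of the mature snoRNAs. They are given per gene over all its annotated forms, and spliced and unspliced forms were not told apart.

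In the annotation of GRCm39, 33 snoRNA entries lie within the 9 genes. *Gas5* holds 10, *Snhg1* 8, *Snhg12* 5, *Zfas1* 3, *Snhg3* and *Snhg5* 2 each, and *Snhg6*, *Snhg8* and *Epb41l4aos* 1 each, with *Snord80* and *Snora16a* each entered as overlapping copies. Except for the 5 in *Snhg12*, whose canonical transcript is annotated as 1 unspliced exon, all of them lie in introns of the canonical transcript. On the strand of the transcript, 20 of the 33 (60.6%) hold TGATGA, the C box, in the first 20 bases and CTGA, the D box, in the last 15, against 19.9% of the 1558 snoRNAs annotated in all. Another 7 (21.2%) are over 100 bases long and end in ACA followed by 2 to 4 bases, as box H/ACA snoRNAs do, against 41.8% of all annotated. The other 6 matched neither pattern. The snoRNAs below, read from the genome sequence, show what is cut out of an intron of 4 of the hosts, with the C and D boxes or the ACA in capitals.
Snord47, in *Gas5* at chr1:160865652-160865728, plus strand: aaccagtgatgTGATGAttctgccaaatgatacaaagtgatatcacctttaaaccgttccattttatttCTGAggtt
Snord12, in *Zfas1* at chr2:166907196-166907285, plus strand: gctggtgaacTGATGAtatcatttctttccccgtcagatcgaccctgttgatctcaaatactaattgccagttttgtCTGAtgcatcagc
Snord50a, in *Snhg5* at chr9:88403582-88403653, minus strand: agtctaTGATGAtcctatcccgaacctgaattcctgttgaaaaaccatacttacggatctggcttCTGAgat
Snora24, in *Snhg8* at chr3:123301586-123301715, minus strand: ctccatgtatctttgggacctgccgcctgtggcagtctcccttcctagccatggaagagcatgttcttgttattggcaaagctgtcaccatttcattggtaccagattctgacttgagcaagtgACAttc

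The promoter table of RefSeq (GRCm38.p6) held 8 promoters for 7 of the 9 genes, each of which matched GRCm39 exactly and at 1 place. A C followed by at least 4 bases that are each C or T, starting within 10 bases of the RefSeq start, was searched on the strand of the transcript. It was found in 5 of the 8 promoters (62.5%) and in 30.7% of the 32851 promoters of the table. Of the 256 promoters of protein-coding snoRNA hosts, as defined below, 34.8% held it. Within 20 bases the shares were 62.5%, 49.4% and 51.2%. The windows below run from 30 bases before the start, with the run in capitals where there is one. They are shown so that the 5 starts with a run can be compared with the 3 without, and a match is a description of the letters only.
Gas5, second promoter, chr1:160862706-160862765, plus strand: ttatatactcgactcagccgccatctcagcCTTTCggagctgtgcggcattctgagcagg
Snhg8, chr3:123301956-123302015, minus strand: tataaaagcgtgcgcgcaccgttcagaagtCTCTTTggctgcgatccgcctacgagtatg
Snhg12, chr4:132035959-132036018, plus strand: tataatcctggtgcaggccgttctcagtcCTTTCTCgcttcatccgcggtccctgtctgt
Snhg3, chr4:132080968-132081027, minus strand: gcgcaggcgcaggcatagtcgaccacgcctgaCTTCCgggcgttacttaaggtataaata
Snhg5, chr9:88404921-88404980, minus strand: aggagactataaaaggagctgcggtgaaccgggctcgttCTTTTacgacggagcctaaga
Gas5, first promoter, chr1:160862141-160862200, plus strand, no run: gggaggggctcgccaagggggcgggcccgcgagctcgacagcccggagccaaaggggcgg
Snhg1, chr19:8700821-8700880, plus strand, no run: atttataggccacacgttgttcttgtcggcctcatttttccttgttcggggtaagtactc
Zfas1, chr2:166904824-166904883, plus strand, no run: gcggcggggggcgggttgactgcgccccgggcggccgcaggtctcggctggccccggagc

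The libraries held between 17056267 and 20511700 estimated counts. All 10 ILC2 markers, among them *Gata3* and *Il1rl1*, were present, with summed levels of 137638 to 148772 normalized counts in vehicle and 107088 to 111967 in melatonin. *Il1rl1* and *Rora* were called higher, *Il7r*, *Klrg1*, *Areg*, *Il5* and *Il13* lower, and *Gata3*, *Icos* and *Bcl11b* neither. Several markers of other cell types were lower with melatonin. The 3 NK and ILC1 markers summed to 155.5 to 195 in vehicle and 7.65 to 9.34 in melatonin, and the 4 myeloid markers to 1321 to 1516 and 360 to 798. *Pecam1*, an endothelial marker, was at 1001 to 1066 and 310.02 to 416. The 2 T cell markers listed summed to 198 to 239 and 40.2 to 119, and *Cd4*, *Cd8a*, *Ms4a1*, *Epx*, *Prg2* and *Cdh5* were not in the table. The 3 epithelial markers summed to 873 to 2068 and 1022 to 1236 but moved apart. *Scgb1a1* was at 95.2, 21.5 and 1045 in vehicle and at 0, 0 and 1.01 in melatonin, *Sftpc* fell from 155, 122 and 389 to 6.54, 5.46 and 3.02, and *Epcam* rose from 623, 745 and 634 to 1230, 1016 and 1046 (limma adjusted p of 0.00177, 9.0e-05 and 0.00107). The B cell list summed to at most 9.33 in vehicle and 2.01 in melatonin, and the eosinophil list to at most 7.34 and 1.01. The part of these transcripts in the host gene values was not tested, and in bulk RNA fewer cells of a type and less RNA per cell cannot be told apart. The X-linked *Xist* was at 579 and 1091 in melatonin replicates 2 and 3 and at most 13.6 in the other 4 libraries, while the Y-linked *Ddx3y*, *Eif2s3y*, *Kdm5d* and *Uty* were listed at 0 in those 2 and between 298 and 1363 in the other 4. The Y-linked transcripts go against the methods, which give female mice, and set melatonin replicates 2 and 3 apart from the other libraries. Results are therefore given below also for the 4 libraries with Y-linked transcripts alone and without melatonin replicate 1. Without that replicate sex follows the groups wholly, so that fit cannot tell sex and melatonin apart. All 9 host genes are autosomal. The library numbers in the labels form 1 run per group, so a batch that follows them cannot be told apart from melatonin.

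Melatonin treated aILC2s had less of 7 of the 9 host transcripts than vehicle treated cells. *Snhg1*, *Snhg3*, *Snhg6*, *Snhg8*, *Snhg12*, *Zfas1* and *Epb41l4aos* fell (adjusted p under 0.05, limma), 0 rose, and *Gas5* and *Snhg5*, the 2 most abundant by normalized counts, did not pass the test. Of all genes tested, 24.7% were called lower and 24.5% higher. In the same 7 genes all melatonin samples lay below all vehicle samples, which was so for 30.3% of all genes tested. The median log2 fold change of the 9 was -0.96, all 9 were negative, and the median of all genes tested was -0.00. At an adjusted p under 0.01, 5 of the 9 were lower, against 15.7% of all genes tested. With 3 samples in each group, the smallest two-sided p of an exact permutation test is 0.1, and each of the 7 reached it.

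**Figure D1:**
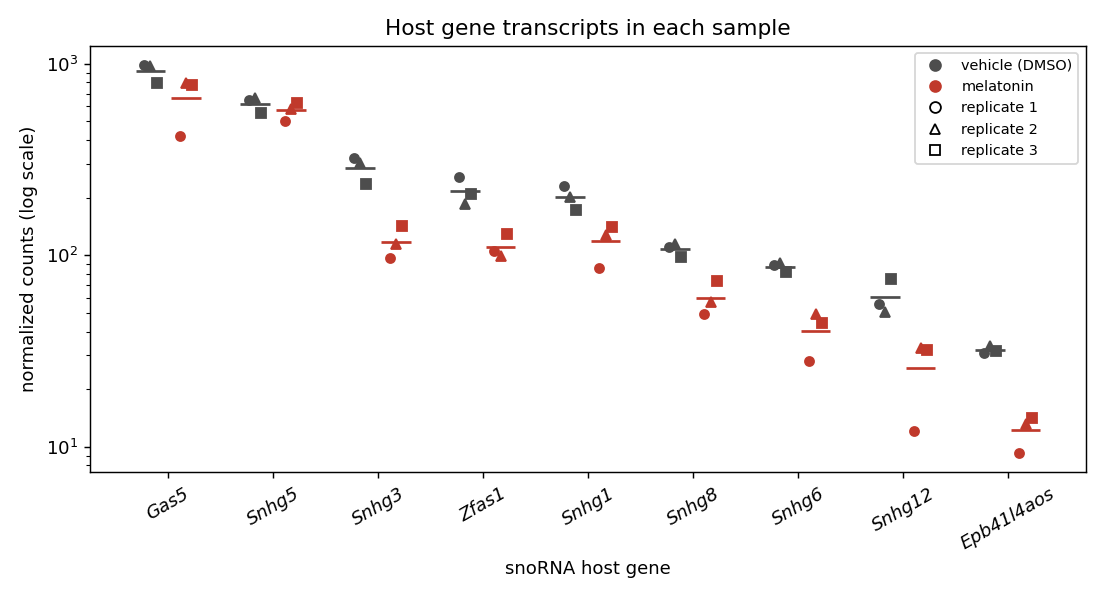
Normalized counts (log axis) of the 9 host genes in each sample, ordered by their vehicle mean, with vehicle in grey, melatonin in red, symbols for the replicates and lines for the group means. The groups overlap for Gas5 and Snhg5 and are apart for the other 7 genes, and melatonin replicate 1 is the lowest of its group in 8 of the 9.

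Among the hosts of box C/D snoRNAs, *Gas5* (ENSMUSG00000053332, chr1:160861793-160866118, plus strand) was the most abundant. It is named for its accumulation in growth-arrested cells, and its RNA is known as a decoy of the glucocorticoid receptor. It was at 983, 975 and 792 normalized counts in vehicle replicates 1, 2 and 3 and at 418, 794 and 773 in melatonin replicates 1, 2 and 3. Melatonin replicate 1 was far below the other 5 samples, and the other 2 melatonin samples lay within or just below the vehicle range. The log2 fold change was -0.52 ± 0.23 (SE), with a limma adjusted p of 0.0867 and an exact permutation p of 0.2. Its 95% interval, not adjusted for the number of genes, ran from -1.04 to -0.0036. Without melatonin replicate 1 the log2 fold change was -0.22 (adjusted p = 0.131), and in the 4 libraries with Y-linked transcripts it was -1.12 (adjusted p = 0.00214). Over all alternatives the adjusted p of *Gas5* ran from 0.00214 to 0.208.

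*Snhg5* (ENSMUSG00000097195, chr9:88377321-88405615, minus strand), the host of the U50 snoRNAs, was at 644, 663 and 551 in vehicle and 502, 584 and 626 in melatonin. The groups overlapped, and the log2 fold change was -0.12 ± 0.12 (adjusted p = 0.438, 95% interval -0.39 to 0.15). A fall as large as the median of the 9 genes lies outside that interval. *Gas5* and *Snhg5* together made up 59.8% to 62.6% of the summed normalized counts of the 9 genes in vehicle and 70.4% to 73.6% in melatonin, a share set up after their values had been seen and given without a test.

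*Zfas1* (ENSMUSG00000074578, chr2:166903619-166907799, plus strand), which hosts the *Snord12* family and starts beside *Znfx1* on the other strand, was at 257, 186 and 210 in vehicle and at 106, 99.4 and 129 in melatonin. The highest melatonin sample was well below the lowest vehicle sample, and the log2 fold change was -0.96 ± 0.18 (adjusted p = 0.00251). When each sample was left out in turn, the value ran from -1.07 to -0.83.

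*Snhg1* (ENSMUSG00000108414, chr19:8700319-8703812, plus strand), the host of U22 and other box C/D snoRNAs, was at 230, 202 and 172 in vehicle and at 85.9, 128 and 141 in melatonin. The groups were apart by the gap between 141 and 172, with a log2 fold change of -0.78 ± 0.21 (adjusted p = 0.0147). The call was lost without vehicle replicate 1 (adjusted p = 0.0596) or 2 (0.0519), and over all alternatives the adjusted p ran from 0.00584 to 0.0596. Without melatonin replicate 1 *Snhg1* was at -0.57 (adjusted p = 0.0204), and in the libraries with Y-linked transcripts at -1.21 (adjusted p = 0.00584). *Snhg6* (ENSMUSG00000098234, chr1:9926809-10014504, minus strand), the host of *Snord87*, was at 88.7, 90.9 and 81.8 in vehicle, a narrow range, and at 28.0, 49.2 and 44.2 in melatonin. It fell by 1.12 on the log2 scale (SE 0.25, adjusted p = 0.0064).

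Of the hosts of box H/ACA snoRNAs, *Snhg3* (ENSMUSG00000085241, chr4:132075325-132080997, minus strand) carries *Snora73a* and *Snora73b*, the U17 snoRNAs that act in the cleavage of the ribosomal RNA precursor. It was at 323, 302 and 236 in vehicle and at 96.7, 115 and 142 in melatonin. The melatonin mean was 41.1% of the vehicle mean. The log2 fold change was -1.28 ± 0.19, and its adjusted p of 0.000816 was the smallest of the 9 genes. After a correction for transcript length it was -0.83 and still called (adjusted p = 0.0041, range over all alternatives 0.000200 to 0.00694).

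*Snhg8* (ENSMUSG00000104960, chr3:123301192-123302578, minus strand), the host of *Snora24*, was at 110, 114 and 97.6 in vehicle and 49.5, 56.8 and 73.4 in melatonin, with no overlap. The log2 fold change was -0.85 ± 0.21 (adjusted p = 0.00953). *Epb41l4aos* (ENSMUSG00000087590, chr18:33927232-33932266, plus strand), which lies opposite *Epb41l4a* and holds 1 snoRNA entry of the H/ACA kind, had the fewest reads of the 9. It was at 30.8, 33.7 and 31.5 in vehicle and at 9.34, 13.1 and 14.1 in melatonin, the lowest of which stands for 10 estimated counts. The log2 fold change was -1.34 ± 0.31 (adjusted p = 0.00745), the most negative of the 9 with the pseudocount of 1. With a pseudocount of 10 it was -0.93, less negative than the -1.22 of *Snhg3*.

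*Snhg12* (ENSMUSG00000086290, chr4:132035905-132038762, plus strand) hosts snoRNAs of both classes and lies near *Snhg3*. It was at 56.0, 50.6 and 75.5 in vehicle and at 12.1, 32.8 and 32.2 in melatonin. Both groups held 1 sample apart from the other 2, vehicle replicate 3 above and melatonin replicate 1 below. The log2 fold change of -1.31 had the largest error of the 9 genes (SE 0.39, adjusted p = 0.0226). It was -0.86 without melatonin replicate 1 (adjusted p = 0.0247) and -2.21 in the libraries with Y-linked transcripts (adjusted p = 0.00384). The call was lost without vehicle replicate 1 (adjusted p = 0.0517) or 3 (0.0903), the highest over all alternatives, where the lowest was 0.00384.

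**Figure D2:**
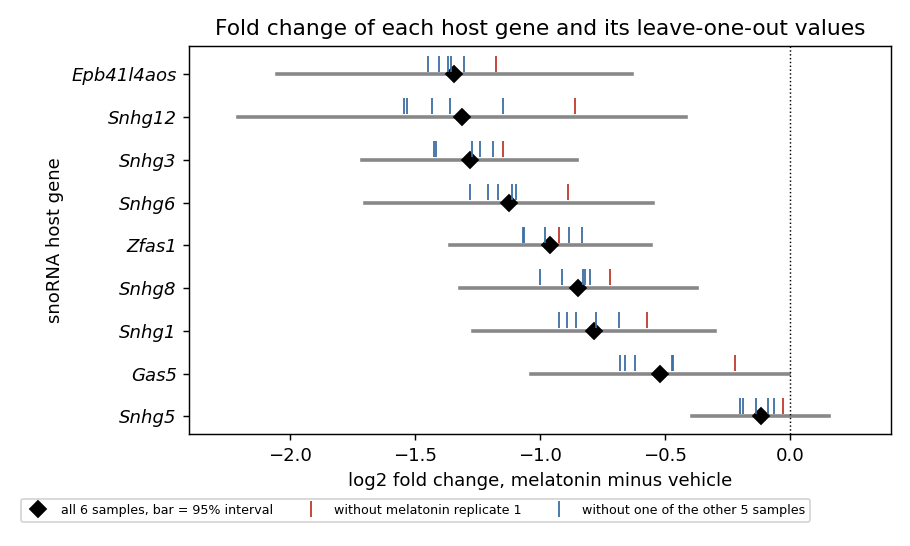
Log2 fold change (melatonin minus vehicle) of the 9 host genes in all 6 samples (diamonds) with 95% intervals not adjusted for the number of genes (bars), and with 1 sample left out (ticks, red without melatonin replicate 1). Every tick is below 0, and leaving out melatonin replicate 1 brings Gas5 to -0.22 and Snhg12 to -0.86.

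Melatonin replicate 1 was the lowest of its group in 8 of the 9 genes and *Zfas1* was the exception. The 9 genes summed to 2722, 2619 and 2247 normalized counts in vehicle and to 1308, 1873 and 1975 in melatonin. Without melatonin replicate 1, 7 of the 9 were still called lower and the median log2 fold change was -0.86. In that fit Y-linked transcripts are in all vehicle and no melatonin libraries, so sex and melatonin cannot be told apart. With the 4 libraries that hold Y-linked transcripts alone, where 1 melatonin sample stands against 3 and is assumed to vary like the vehicle samples, 8 were called lower with a median of -1.21. Of the genes not yet given in both ways, the log2 fold changes without melatonin replicate 1 were -1.15 for *Snhg3*, -0.029 for *Snhg5*, -0.89 for *Snhg6*, -0.72 for *Snhg8*, -0.93 for *Zfas1* and -1.18 for *Epb41l4aos*. In the Y-linked libraries these were -1.55, -0.30, -1.60, -1.10, -1.02 and -1.67 in the same order, and in both ways each of the 6 except *Snhg5* was called lower. When other single samples were left out, between 5 and 7 were called lower.

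Per kilobase of the canonical transcript the vehicle levels ran from *Gas5* (1370 ± 161 normalized counts per kb, SD, n = 3) over *Snhg3* (865 ± 138), *Zfas1* (463 ± 76.1), *Snhg5* (418 ± 40.7), *Snhg1* (178 ± 25.5), *Snhg8* (109 ± 8.87), *Epb41l4aos* (65.3 ± 3.13) and *Snhg6* (38.7 ± 2.09) to *Snhg12* (21.4 ± 4.62). *Zfas1* and *Snhg5* differed by less than the SD of *Zfas1* and by more than that of *Snhg5*. In melatonin *Gas5* was at 989 ± 316, *Snhg5* at 386 ± 42.5, *Snhg3* at 355 ± 69.0, *Zfas1* at 237 ± 32.8, *Snhg1* at 105 ± 25.4, *Snhg8* at 61.0 ± 12.5, *Epb41l4aos* at 24.8 ± 5.11, *Snhg6* at 17.96 ± 4.91 and *Snhg12* at 9.04 ± 4.13. *Snhg5* was thus the fourth in vehicle and the second in melatonin. In melatonin it and *Snhg3* lay within 1 SD of each other. The canonical lengths run from 332 bases for *Snhg3* to 2842 for *Snhg12*, whose canonical transcript is unspliced, so a shorter spliced form would give a higher level per kb.

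For 7 of the 9 genes the estimated counts were whole numbers in all 6 libraries. For *Snhg3* they were whole in 0 libraries and for *Snhg5* in 1, as happens where the authors' algorithm divides reads between a gene and others. *Snhg3* shares its locus with *Rcc1*, a nucleotide exchange factor of Ran whose annotated start is 46 bases away on the same strand. *Rcc1* was at 3413, 3435 and 3404 in vehicle and 2292, 2632 and 2352 in melatonin, and fell by 0.50 (SE 0.08, adjusted p = 0.00112). The lncRNA *Gm17300* lies on the opposite strand, shares 158 exon bases with *Snhg3*, and was at 198, 184 and 152 in vehicle and 84.4, 98.1 and 73.9 in melatonin (log2 fold change -1.05 ± 0.18, adjusted p = 0.00176). The library kit does not keep the strand, so reads of *Snhg3* and *Gm17300* over those bases cannot be told apart.

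Of 5 other genes that overlap the 9 hosts on the opposite strand, 0 were called lower and 2 higher. Over all genes tested the shares were 24.7% and 24.5%. Distances below are between the outermost annotated starts in GRCm39 and not the RefSeq starts given above. For *Zfas1* the annotated start is 166903619 and the RefSeq start 166904854, and for *Snhg1* 8700319 and 8700851. Both RefSeq starts of *Gas5*, 160862171 and 160862736, also differ from its annotated start of 160861793. *Slc3a2*, the heavy chain of the CD98 amino acid transporter, starts 789 bases from *Snhg1* in the other direction. It rose from 10285, 10853 and 10567 in vehicle to 16455, 15725 and 14741 in melatonin (log2 fold change 0.56 ± 0.08, adjusted p = 0.000518). *Znfx1*, a helicase that starts 1349 bases from *Zfas1*, rose from 624, 550.0 and 588 to 817, 803 and 715 (0.40 ± 0.10, adjusted p = 0.00939). Both pairs thus held 1 gene called lower and 1 called higher.

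*Zbtb37*, which starts 626 bases from *Gas5*, had a log2 fold change of 0.20 ± 0.26 (adjusted p = 0.547). Without strand, reads over the 61 exon bases that these 2 genes share cannot be told apart. *Sgk3*, opposite *Snhg6*, was at 112, 99.3 and 103 in vehicle and 94.3, 167 and 165 in melatonin (0.39 ± 0.24, adjusted p = 0.195). Melatonin replicate 1 was below all vehicle samples and the other 2 above them. Without that replicate *Sgk3* was called higher (0.66, adjusted p = 0.00821), in the libraries with Y-linked transcripts it was at -0.15 (adjusted p = 0.574), and over all alternatives the adjusted p ran from 0.00821 to 0.574. *Epb41l4a*, opposite *Epb41l4aos*, was at 0.06 ± 0.46 (adjusted p = 0.921) on means of 7.12 and 7.81 normalized counts, and a change was not detectable at this depth. The groups overlapped for all 3 of these genes.

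**Figure D3:**
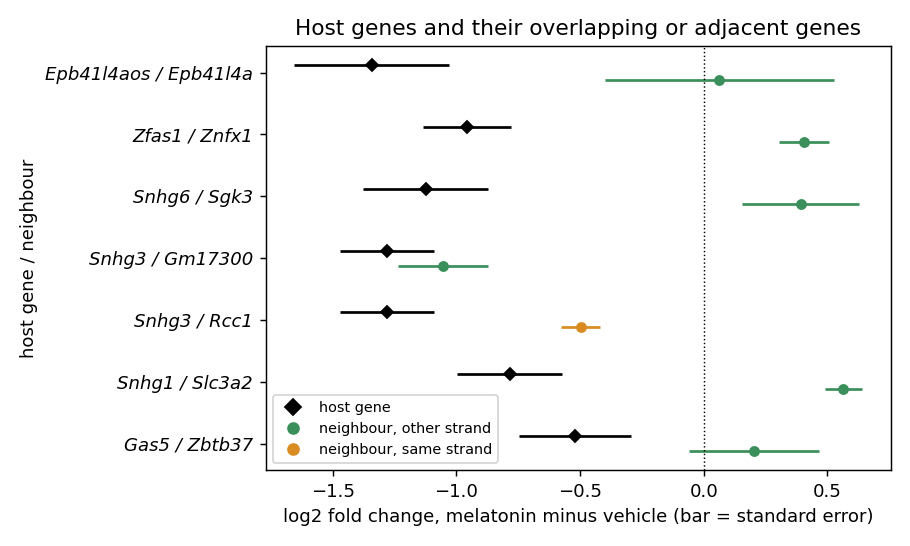
Log2 fold change (melatonin minus vehicle) with its standard error for host genes (black diamonds) and the genes that overlap them on the other strand (green) or on the same strand (orange). Slc3a2 at 0.56 and Znfx1 at 0.40 lie above 0 beside Snhg1 and Zfas1 below it, while Rcc1 and Gm17300 lie below 0 with Snhg3.

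Of 14 other noncoding host genes on the list, 6 were in the table and 5 were tested, of which 4 fell and 0 rose (median log2 fold change -0.70). *Snhg15* was at 582, 624 and 531 in vehicle and 336, 374 and 325 in melatonin (-0.75 ± 0.11, adjusted p = 0.000869). *Snhg16* (-0.70, adjusted p = 0.0068), *Snhg17* (-0.63, adjusted p = 0.00514) and *Dancr* (-1.37, adjusted p = 0.00357) were lower too. *Snhg20* was at 177, 163 and 169 in vehicle and 210.1, 214 and 178 in melatonin, and its log2 fold change of 0.24 ± 0.14 did not pass the test (adjusted p = 0.188). *Dancr* and *Snhg20* were named after their values had been seen. Of all 645 tested genes annotated as lncRNA, 16.9% were called lower and 9.15% higher. Both shares were smaller than over all genes tested (24.7% and 24.5%).

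Most snoRNAs of mammals lie in introns of protein-coding genes. Taken as coding hosts were the 283 protein-coding genes whose annotated span wholly holds a snoRNA entry on the same strand. Whether the entry lies in an intron of the gene was not checked. *Rcc1*, whose span covers *Snhg3* and its snoRNAs, is among them. Of the 283, 232 were tested, of which 97 were called lower (41.8%), 41 higher (17.7%) and 94 neither. Their median log2 fold change was -0.21. The 41 higher calls became 26 without vehicle replicate 1 and 27 without limma's trend. All 30 hosts that encode a ribosomal protein were called lower, with a median of -1.08 and a range from -1.52 (*Rpl39*) to -0.71 (*Rps20*). Of the other 202, 67 (33.2%) were lower and 41 (20.3%) higher, with a median of -0.10. Of all tested protein-coding genes, 24.6% were called lower and 27.7% higher, and of all genes tested 24.7% and 24.5%. The split by ribosomal proteins was made after the design had been set, and ribosomal protein genes have near-identical pseudogenes among which the authors' algorithm divides reads, so single values are uncertain.

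Outside the ribosomal proteins, *Piwil2*, a PIWI protein of the germline, was the most reduced of the abundant coding hosts. It was at 421, 483 and 441 in vehicle and at 93.4, 172 and 123 in melatonin (-1.83 ± 0.21, adjusted p = 0.000255). The chromatin remodeller *Chd3* (-1.80) and the poly(A) binding protein *Pabpc4* (-1.72) followed. The most raised were *Slc49a4* (1.68 ± 0.22), at 82.1, 124 and 134 in vehicle and 430.5, 361 and 298 in melatonin, the cyclin-dependent kinase *Cdk14* (1.61) and the ubiquitin ligase *Cop1* (1.32).

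**Figure D4:**
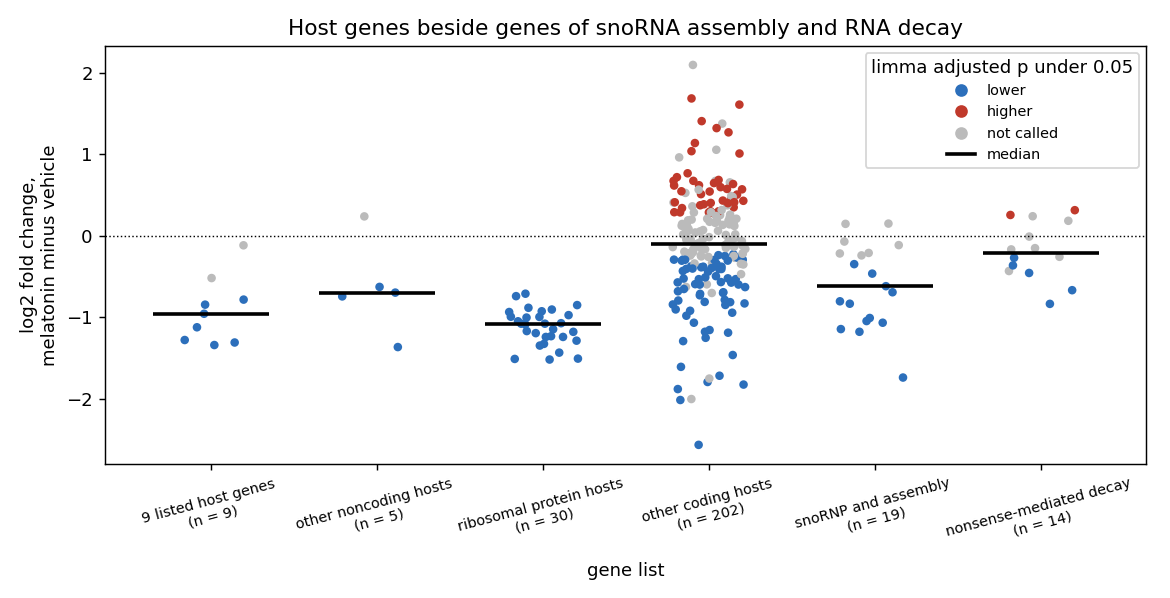
Log2 fold change (melatonin minus vehicle) of each tested gene of 6 lists, blue where called lower, red where called higher and grey where neither, with a black line at the median and the sideways spread random. The medians of the 9 host genes (-0.96) and of the ribosomal protein hosts (-1.08) lie below those of the other coding hosts (-0.10) and the nonsense-mediated decay factors (-0.21).

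The proteins that bind and assemble snoRNAs were lower in part. Of 19 genes, 12 were called lower (63.2%), 0 higher and 7 neither (median log2 fold change -0.62). Over all genes tested, 24.7% were called lower and 24.5% higher. Of the box C/D core, the methyltransferase fibrillarin (*Fbl*) was at 1513, 1573 and 1588 in vehicle and at 514, 789 and 800 in melatonin (-1.18 ± 0.16, adjusted p = 0.000548). *Nop58* (-0.69) and *Snu13* (-0.62) fell as well, and *Nop56*, itself a snoRNA host, was at 0.14 ± 0.11 with overlapping groups. Of the box H/ACA core, *Gar1* was at 1209, 1218 and 1115 in vehicle and 369, 668 and 612 in melatonin (-1.15 ± 0.20, adjusted p = 0.00175). The pseudouridine synthase dyskerin (*Dkc1*) was at 4463, 4643 and 4196 and at 1808, 2447 and 2127 (-1.07 ± 0.11, adjusted p = 0.000174). *Nhp2* fell by 1.01, and *Nop10* was at 0.15 ± 0.13 and did not pass the test.

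Of 11 assembly factors 6 fell (54.5%), against 24.7% of all genes tested. The 6 were the H/ACA factor *Naf1* (-1.74), the ATPases *Ruvbl2* (-1.05) and *Ruvbl1* (-0.84), the nucleolar chaperone *Nolc1* (-0.81), *Znhit6* (-0.47) and *Nufip1* (-0.35). *Rpap3*, *Pih1d1*, *Znhit3*, *Shq1* and *Coil* had log2 fold changes from -0.24 to -0.07 and were not called. Genes of this list other than *Fbl*, *Gar1* and *Dkc1* were named for their roles after their values had been seen.

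The factors of nonsense-mediated decay, the pathway that removes many spliced host transcripts, had a median log2 fold change of -0.21. Of 14 genes, 5 were called lower, 2 higher and 7 neither. The shares of 35.7% and 14.3% stand against 24.7% and 24.5% of all genes tested. The exon junction complex subunits *Magoh* and *Eif4a3* were the most reduced. *Magoh* was at 1562, 1433 and 1306 in vehicle and 649, 794 and 992 in melatonin (-0.84 ± 0.15, adjusted p = 0.00205), and *Eif4a3* fell by 0.67 (adjusted p = 0.000241). The kinase *Smg1* fell by 0.46 (adjusted p = 0.0289). *Upf3a* rose by 0.31 (adjusted p = 0.0244) and *Casc3* by 0.25 (adjusted p = 0.0368), and these were lost without vehicle replicate 1, vehicle replicate 2 or melatonin replicate 2, each of which left 0 genes called higher. The 5 lower calls became 3 without any 1 of the vehicle samples. The central helicase *Upf1* was at 914, 1279 and 1473 in vehicle and 691, 958 and 1054 in melatonin, with overlapping groups (-0.43 ± 0.20, adjusted p = 0.0995).

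The snoRNAs themselves were not among the genes with values: 0 of the 33 entries within the 9 hosts are listed. The only 2 rows of their kind are the small Cajal body RNAs *Scarna2* and *Gm22009*. *Scarna2* was at 3.73, 5.62 and 2.10 in vehicle and 11.2, 3.28 and 5.03 in melatonin (log2 fold change 0.57 ± 0.62, adjusted p = 0.469), and *Gm22009* was too low to be tested. Whether the snoRNA levels moved with their hosts was not measured here.

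Shorter transcripts were called lower more often in these libraries. Of the 3203 tested genes with a canonical transcript under 1500 bases 35.3% were lower (median log2 fold change -0.32), against 21.7% of the 11188 longer ones (median 0.07). Of the 9 hosts, *Snhg6* and *Snhg12* have a canonical transcript above that length. A correction of each sample for transcript length used the longest annotated transcript of each gene, not the canonical one. By that length only *Snhg3* (581 bases) and *Snhg8* (1344) of the 9 are under 1500 bases, and *Gas5* is at 3946 against 669. After it, 7 of the 9 were called lower, with a median of -0.83. *Snhg3* went from -1.28 to -0.83 and *Snhg8* from -0.85 to -0.60, while *Gas5* went from -0.52 to -0.58. A correction by canonical length was not tested.

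By the root mean square difference over the 6 samples between log2 values centred on each gene's mean and the median profile of the 9 hosts, the most similar of 9985 other genes with a mean of at least 100 were *Syncrip* (0.050), *Gm6863* (0.055), *U2af1* (0.056), *Rpl26* (0.059) and *Gm10232* (0.061). *Syncrip*, an RNA-binding protein, was at 3108, 2999 and 2750 in vehicle and 1188, 1778 and 1729 in melatonin. *U2af1*, a splicing factor that reads the 3' splice site, was at 1102, 1080 and 1051 and at 443, 652 and 702. *Gm6863* and *Gm10232* are processed pseudogenes, whose reads may belong to their parent genes. In all 5, as in 8 of the 9 hosts, melatonin replicate 1 was the lowest sample, a pattern that the measure of likeness itself selects.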

How the data were processed

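The authors prepared cDNA with a SMARTer Ultra Low Input kit (the methods give 10 pg of RNA, the labels 10 ng), trimmed reads at a Phred score of 35, aligned them with STAR to mm39, used the E/M algorithm of Partek to divide them among the genes of Gencode M33, removed genes with low counts and applied DESeq2's median ratio scaling to each sample. What they deposited is therefore a signal: each estimated count over the size factor of its sample, called a normalized count here. At a tolerance of 0.01, 63.4% to 66.0% of the values of a library were whole multiples of the value of 1 read, so whole reads were not recovered. A count of 0 to 3 was taken as the floor.

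The test was limma 3.58.1 in R 4.3.3 with a mean-variance trend on log2 values after adding a pseudocount of 1, for genes that reached 10 normalized counts in 1 sample or more, with Benjamini-Hochberg adjustment over 14419 genes at a threshold of 0.05. Fold changes are on that log2 scale and understate changes of low genes. P-values measure the spread between these samples, which may be technical. Positions, lengths and snoRNAs came from release M39 of the annotation (16334 of 16381 identifiers matched), and values from M33 may cover other transcripts. Replicate numbers did not pair the samples. The 20 alternatives covered the pseudocount, filter, scaling, model, transcript length, GC content, the replicate block and each sample left out, and 1 of them, the libraries with Y-linked transcripts alone, was chosen after seeing the data. The 9 genes and the lists were chosen with earlier results of these data known. Besides the 9 genes and their neighbours, the rule named the 3 largest rises and falls called in each list with a mean of at least 100, and the 5 genes most like the 9. Scripts were tested on simulated data. Values of items withheld for evaluation are not reported here.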

Additional observations from a re-analysis of the deposited data

How the results depend on the processing

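No alternative called any of the 9 host genes higher. With only genes at a mean of at least 100 normalized counts, 5 of the 9 could be tested and 3 were called lower, since fewer genes entered. In the libraries with Y-linked transcripts alone the median log2 fold change of the 9 was -1.21, and *Gas5* was called there and after GC correction (-0.59, adjusted p = 0.0491, in a range of 0.00214 to 0.208). With each sample left out in turn, 5 to 7 of the 9 were called lower and their median ran from -1.07 to -0.83. The replicate numbers did not deviate together, with correlations of -0.106, 0.136 and -0.194 for the same-numbered pairs, and the replicate block left 7 of the 9 called lower and left 0 decay factors called higher. For the decay factors, the genes called higher were 0 with quantile normalization or the Y-linked libraries alone and 1 with length correction, upper quartile scaling or no trend, and 0 to 3 with a sample left out. The lower ones were 2 without the trend and 3 to 6 with a sample left out. Among the snoRNP and assembly genes, 1 was called higher with sample weights or length correction and 0 to 1 with a sample left out. Protein-coding hosts called higher numbered 27 without the trend and 26 to 46 with a sample left out. Values that had not passed the test turned sign for *Zbtb37* (-0.0636 to 0.40 with a sample left out, -0.20 in the Y-linked libraries), *Epb41l4a* (-0.0385 with length correction, -0.18 to 0.31 with a sample left out) and *Sgk3* (-0.15 in the Y-linked libraries), which was called higher without melatonin replicate 1 (0.66) and with sample weights (0.57). The cause of these changes was not tested. Low counts limit *Epb41l4aos* and *Snhg12*, with as few as 10 and 13 estimated counts in a library.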
